A study of Mus musculus with 206 samples.

Results

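H3K27ac, the acetyl mark of active promoters and enhancers, was described at 9 genes that encode RNA-binding proteins of neurons: Elavl2, Elavl3, Elavl4, Rbfox1, Rbfox2, Rbfox3, Celf2, Celf4 and Nova1. A consensus region belonged to a gene if it lay inside the gene body or had the gene's start site as the nearest protein-coding one within 100 kb (mm10, GENCODE M21). By this rule 857 of the 108274 consensus regions of the 4 brain regions belonged to these genes, of which 832 lay inside the gene bodies and 25 outside. The genes were chosen by results of these libraries already known, among them peak heights of the hypothalamus LPS groups. Differences between treatment groups of the hypothalamus that involve an LPS group are therefore described here without a test. Printed p-values that set the hypothalamus against another brain region come from the animals without LPS. Counts of hypothalamus calls over all libraries include the LPS groups used in the choice. They are a description, and the calls without LPS animals are given after them.

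The animals were wild-type C57BL/6NTac mice of both sexes. Dams received morphine at 10 mg/kg per day or saline by minipump through gestation, the pups were moved at birth to drug-naive surrogates, and the same drug was then injected morning and evening from postnatal day 1 to 14 at 10 mg/kg. As adults, whose age was not given in the labels, the animals received lipopolysaccharide (LPS), a bacterial cell wall component that starts an acute immune response, or saline, and tissue was taken 2 h later. Groups are named by perinatal, then adult treatment: SAL-SAL and MOR-SAL had saline as adults, and SAL-LPS and MOR-LPS had LPS. Perinatal treatment was given to whole litters, and animals of 1 group came from several litters. Each library held chromatin from about 10000 nuclei that had been sorted for NeuN, from 1 brain region of 1 animal. With the groups in this order, the libraries compared numbered 8, 9, 11 and 14 in prefrontal cortex (PFC), 11, 11, 12 and 10 in hippocampus, 8, 12, 11 and 10 in hypothalamus and 10, 7, 13 and 15 in striatum. Peak lists held 11306 to 143527 peaks in PFC, 10811 to 109977 in striatum, 13021 to 143124 in hippocampus and 20170 to 135368 in hypothalamus.

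The 9 genes belong to 4 families. Elavl2, Elavl3 and Elavl4 encode the neuronal Hu proteins, which bind AU-rich and U-rich elements of mRNAs and affect their stability and splicing. Rbfox1, Rbfox2 and Rbfox3 encode splicing regulators that bind the RNA element UGCAUG, and the Rbfox3 product is NeuN itself, the antigen by which the nuclei were sorted. Celf2 and Celf4 encode CELF proteins, which act on splicing, translation and mRNA stability through GU-rich elements, and Nova1 encodes a splicing regulator of neurons that binds YCAY elements.

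Promoter sequences are shown for 6 start sites at which acetylation is described below, chosen because they carry the contrasts between brain regions and the hypothalamus difference at Elavl2 (for Nova1, the one window at hand), each from 250 bases before to 50 bases after a RefSeq transcript start (GRCm38.p6, minus strand in each case). Capitals mark the GC box GGGCGG, read on either strand, and the E-box CAGCTG, whose reverse complement is itself.
Elavl2 promoter 2, chr4:91376447-91376746: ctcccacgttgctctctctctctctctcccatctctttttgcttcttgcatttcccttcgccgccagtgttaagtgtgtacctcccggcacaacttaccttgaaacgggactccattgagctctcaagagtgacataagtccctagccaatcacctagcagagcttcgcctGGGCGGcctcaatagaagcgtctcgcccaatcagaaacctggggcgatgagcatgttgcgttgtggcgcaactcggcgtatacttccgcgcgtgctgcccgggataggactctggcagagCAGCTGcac
Elavl2 promoter 3, chr4:91372020-91372319: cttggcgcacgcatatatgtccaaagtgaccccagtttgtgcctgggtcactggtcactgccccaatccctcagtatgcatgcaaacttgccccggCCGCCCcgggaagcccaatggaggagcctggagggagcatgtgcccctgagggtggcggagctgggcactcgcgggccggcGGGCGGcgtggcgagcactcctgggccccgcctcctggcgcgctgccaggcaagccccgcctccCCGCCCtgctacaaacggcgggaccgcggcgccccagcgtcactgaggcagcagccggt
Elavl4 promoter 4, chr4:110287478-110287777: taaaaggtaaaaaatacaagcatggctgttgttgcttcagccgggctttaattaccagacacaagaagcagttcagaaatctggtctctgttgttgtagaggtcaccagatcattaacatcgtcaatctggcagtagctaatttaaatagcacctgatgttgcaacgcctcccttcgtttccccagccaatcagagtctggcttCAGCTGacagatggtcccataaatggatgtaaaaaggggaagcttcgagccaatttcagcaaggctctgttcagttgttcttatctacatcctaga
Nova1 promoter 1, chr12:46818718-46819017: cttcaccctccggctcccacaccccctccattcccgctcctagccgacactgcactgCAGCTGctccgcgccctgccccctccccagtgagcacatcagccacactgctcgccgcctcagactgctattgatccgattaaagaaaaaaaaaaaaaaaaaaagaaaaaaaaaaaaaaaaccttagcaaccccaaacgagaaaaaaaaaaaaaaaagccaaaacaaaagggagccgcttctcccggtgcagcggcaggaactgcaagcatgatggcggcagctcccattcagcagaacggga
Celf2 promoter 2, chr2:7081253-7081552: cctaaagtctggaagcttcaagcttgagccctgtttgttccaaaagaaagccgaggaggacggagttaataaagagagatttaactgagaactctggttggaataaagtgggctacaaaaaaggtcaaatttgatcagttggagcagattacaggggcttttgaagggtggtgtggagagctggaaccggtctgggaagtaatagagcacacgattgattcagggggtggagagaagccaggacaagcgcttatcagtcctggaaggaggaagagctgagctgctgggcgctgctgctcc
Rbfox3 promoter 3, chr11:118760992-118761291: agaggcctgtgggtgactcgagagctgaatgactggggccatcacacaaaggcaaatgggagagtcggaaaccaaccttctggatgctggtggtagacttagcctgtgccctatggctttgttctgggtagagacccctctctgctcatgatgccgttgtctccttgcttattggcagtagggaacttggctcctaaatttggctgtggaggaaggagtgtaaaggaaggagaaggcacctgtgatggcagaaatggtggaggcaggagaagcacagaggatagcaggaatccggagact
Promoters of a gene are numbered from its 5' end, and start sites within 1000 bp of each other count as 1 promoter. Both Elavl2 windows were rich in CpG, with 18 CpG and 56% GC at promoter 2 and 25 CpG and 70.3% GC at promoter 3. Over 32851 RefSeq windows of the same length the medians were 7 CpG and 52.7% GC. The Celf2 and Rbfox3 windows held 6 and 4 CpG and neither motif, and the Elavl4 window held 5 CpG and 1 E-box. The Nova1 window, the only one of that gene in the RefSeq table used, held 14 CpG and 1 E-box. The table matched 7 of the 9 genes with 20 windows. GGGCGG occurred in 8 of the 20 windows, in 3 genes, and in 35.7% of all windows. CAGCTG occurred in 8 of the 20, in 5 genes, and in 16.3% of all windows. Several of the 20 windows overlap at the same promoter, so a single match can be counted more than once. A match is a description of letters only. Rbfox2 and Celf4 are named without a window.

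Regions of the 9 genes were unevenly divided. Rbfox1, whose gene body spans 1526 kb, held 263 regions, Celf2 (970 kb) held 248, Celf4 (277 kb) 119, Rbfox3 (422 kb) 114 and Rbfox2 (228 kb) 67. The Hu genes and Nova1 are shorter and held few regions, with 17 at Elavl4 (148 kb), 11 at Elavl2 (150 kb), 10 at Elavl3 (37.0 kb) and 8 at Nova1 (124 kb). Elavl2 had 6 regions in the hypothalamus, 4 in the striatum, 1 in PFC and 0 in the hippocampus, and Nova1 had 4, 3, 1 and 0 in that order. By brain region the 9 genes took 157 of 16201 hippocampus regions (0.969%), 169 of 18272 PFC regions (0.925%), 432 of 60013 striatum regions (0.720%) and 99 of 13788 hypothalamus regions (0.718%). Their regions were wider than the average and lay less often at a promoter. The median width was 6161 bp for hippocampus, 5065 bp for PFC, 4783 bp for hypothalamus and 2521 bp for striatum regions, against 4956, 3478, 3675 and 2206 bp over all regions. A promoter of any of the 9 genes was touched by 19.2% of their hypothalamus, 11.8% of their PFC, 10.8% of their hippocampus and 6.94% of their striatum regions, where 33.4%, 31.4%, 25.1% and 20.3% of all regions touched a promoter. Of the 99 hypothalamus regions, 91.9% overlapped one of the same genes' regions in the striatum, 74.7% one in the hippocampus and 73.7% one in PFC, and 45.6% of the PFC, 40.8% of the hippocampus and 25.2% of the striatum regions overlapped one of the hypothalamus. The limit of 100 kb fell in a gap upstream of Rbfox1: the farthest regions inside it lay 94.0 to 97.3 kb from the start site with mean ranks of 36.9 in PFC, 42.2 in the hippocampus and 40.5 and 60.9 in the striatum, and the nearest beyond it lay 116.8 to 117.8 kb away with mean ranks of 61.2 (striatum), 44.6 (hippocampus), 39.3 (hypothalamus) and 28.2 (PFC).

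Marker genes of brain cell types were checked in the same lists. All 12 neuron markers had a peak among the 10000 strongest peaks of at least 1 PFC, hypothalamus and striatum library, and 11 of 12 in the hippocampus. Their mean share per library was 47.0% in PFC, 34.3% in the striatum, 33.5% in the hypothalamus and 33.3% in the hippocampus. For astrocyte markers the mean shares were 3.87%, 2.78%, 8.23% and 8.52% in that order. Microglia markers were at 0 in PFC, hypothalamus and striatum, and 2 of 8 had such a peak in the hippocampus. Oligodendrocyte markers were seen in every brain region, with a mean of 5.23% of the 10 markers in the hippocampus and 16% in the striatum as the extremes. All 10 had such a peak in at least 1 PFC and 1 striatum library, 7 in the hypothalamus and 5 in the hippocampus. For the tissue labels, all 6 cortex markers had a peak in PFC, 5 of 6 hippocampus markers in the hippocampus and 5 of 6 striatum markers in the striatum, whereas none of the 9 hypothalamus markers (Pomc, Agrp, Avp, Oxt, Nr5a1, Nkx2-1, Otp, Sim1 and Six6) had one in the hypothalamus libraries, so that label could not be checked by them. The lists did not separate the other tissues either: all 6 striatum markers had a peak in PFC, at a mean share of 43.7% against 29.3% in the striatum, and all 6 cortex markers had one in the hippocampus, at 36.7% against 38.1% in PFC.

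The first comparison asked how acetylation at these genes differed between brain regions. The 36 promoters of the 9 genes were ranked from 0 to 100 by peak height among the 32252 annotated protein-coding promoters of each library, and brain regions were compared by limma with the animal as a block and group and sex as terms. Several promoters of Elavl2, Elavl4 and Nova1 stood higher in the hypothalamus than in at least 1 other brain region, those of Elavl3 did not, and promoters of Celf2 and Rbfox1 stood lower there. Between hippocampus and hypothalamus 19 of 36 promoters were called (background 13.1% of all promoters). Between hypothalamus and striatum 14 were called (background 7.67%), and between hippocampus and striatum 4 (background 10.5%). The rank of promoters that lack a peak is tied and moves with list length, and 59.7% to 63.5% of all promoters were called in the PFC comparisons, where 15 of the 36 were called against the hippocampus, 22 against the hypothalamus and 5 against the striatum. With every promoter without a peak set to rank 0, an alternative chosen after seeing the data in which 33 of the 36 were tested among 15667 promoters, those also called in the same direction were 18 between hippocampus and hypothalamus (background 24.9%), 14 between hypothalamus and striatum (17.2%), 3 between hippocampus and striatum (22.3%), and 12, 14 and 4 between PFC and hippocampus, hypothalamus and striatum (42.7%, 43.2% and 33.6%). In animals without LPS, also chosen after seeing the data, 15 of 36 were called between hippocampus and hypothalamus (background 9.1%), 8 between PFC and hypothalamus (9.29%) and 8 between hypothalamus and striatum (2.2%). "Higher" and "lower" are used below only for promoters called with rank 0 as well and, where the hypothalamus is compared, also in animals without LPS. Differences with their SE are those over all libraries. PFC libraries were made with another library kit (xGen 2S) than the others (ThruPLEX), so kit and brain region cannot be told apart in the PFC comparisons.

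At Elavl2 promoter 2 the rank ranged from 29.9 to 99.6 in the hypothalamus with a median of 86.4, from 29.5 to 97.8 (median 41.7) in the striatum, from 30.4 to 98.2 (median 40.8) in the hippocampus and from 30.7 to 95.3 (median 72.6) in PFC. A top-list peak, that is one among the 10000 of highest −log10 p, was present in 14 of 41 hypothalamus, 6 of 45 striatum, 1 of 44 hippocampus and 1 of 42 PFC libraries. Any peak was present in 29, 14, 12 and 30 libraries, so most PFC libraries with a peak there had none among the strongest. Values overlapped between brain regions. The hypothalamus was higher than the hippocampus by 25.5 ± 4.54 percentile points (SE), and by 26.1 in animals without LPS (adjusted p = 0.0029). Against the striatum the difference was 19.7 ± 4.53, and 18.3 in animals without LPS, which was not called (adjusted p = 0.192). Promoter 1 of Elavl2 was higher in the hypothalamus than in the other 3 brain regions, promoter 3 than in PFC and the hippocampus and promoter 5 than in the hippocampus. Promoter 4 was not called in any contrast. Elavl2 could be noticed in the hypothalamus only because it had consensus regions there, which is a limit of this test.

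Elavl4 promoter 4 had a top-list peak in 75.6% of hypothalamus, 61.9% of PFC, 27.3% of hippocampus and 22.2% of striatum libraries. It was higher in the hypothalamus than in the hippocampus by 17.9 ± 4.00 points and than in the striatum by 24.9 ± 4.00 (adjusted p = 0.0191 and 0.00742 in animals without LPS). Elavl4 promoter 1 was higher in the hypothalamus than in both of these as well, and promoter 3 was called in neither contrast without the LPS animals. Nova1 promoter 2 had a top-list peak in 46.3% of hypothalamus, 14.3% of PFC, 8.89% of striatum and 4.55% of hippocampus libraries. It exceeded the hippocampus by 32.2 ± 4.47 points and the striatum by 19.4 ± 4.46 (adjusted p = 3.34e-06 and 0.00674 in animals without LPS). Nova1 had 4 consensus regions in the hypothalamus and 0 in the hippocampus, so the limit stated for Elavl2 holds for it as well. Nova1 promoter 3 was higher in the hypothalamus than in the other 3 brain regions, by 19.6 to 26.7 points. At Nova1 promoter 1, whose window is printed above, the top-list share was 48.8% in the hypothalamus, 40.5% in PFC, 37.8% in the striatum and 18.2% in the hippocampus, and no contrast was called. Elavl3 had weak promoters throughout, with top-list peaks in at most 15.6% of the libraries of a brain region.

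Celf2 differed in the opposite direction at promoter 2. Promoter 2 had a top-list peak in 90.5% of PFC, 86.4% of hippocampus and 73.3% of striatum libraries and in 24.4% of hypothalamus libraries. It was lower in the hypothalamus than in the hippocampus by 27.3 ± 3.37 points, than in the striatum by 20.7 ± 3.37 and than in PFC by 24.7 ± 3.41 (adjusted p = 2.18e-07, 0.00016 and 6.24e-05 in animals without LPS). Celf2 promoter 1 stood 11.3 to 14.2 points below the 3 others in the hypothalamus, and was called in none of the 3 contrasts without the LPS animals. Celf2 promoter 3 was near the top everywhere, with top-list peaks in 93.2% to 97.8% of libraries. Celf2 promoter 5 ran the other way and was higher in the hypothalamus than in the hippocampus by 16.5 ± 3.66 points (adjusted p = 0.0177 in animals without LPS).

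Rbfox1 is transcribed from widely spaced start sites, and its promoters differed from each other. Promoter 1, at the 5' end, had a top-list peak in 73.8% of PFC, 53.3% of striatum, 43.2% of hippocampus and 41.5% of hypothalamus libraries. Promoter 5, far downstream, had one in 64.3%, 60.0%, 36.4% and 4.88%. Promoter 5 was lower in the hypothalamus than in PFC by 37.6 ± 4.08 points, than in the striatum by 37.0 ± 4.03 and than in the hippocampus by 31.5 ± 4.03 (adjusted p = 3.76e-06, 1.44e-05 and 6.03e-08 in animals without LPS). Rbfox1 promoter 6 was lower in the hypothalamus than in all 3 others too, and promoter 7 than in the hippocampus. Rbfox3 promoter 3, one of 5 of the NeuN gene, had a top-list peak in 61.4% of hippocampus libraries and in 11.9% of PFC, 7.32% of hypothalamus and 4.44% of striatum libraries. The hippocampus was higher there by 22.5 ± 4.33 points than PFC and by 30.7 ± 4.28 than the striatum (adjusted p = 1.2e-05 and 1.1e-09), and by 34.9 ± 4.36 than the hypothalamus (adjusted p = 5.67e-07 in animals without LPS). Rbfox2 promoter 2 and the single Celf4 promoter had top-list peaks in 70.7% to 95.2% and 60.0% to 90.5% of libraries.

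**Figure D1:**
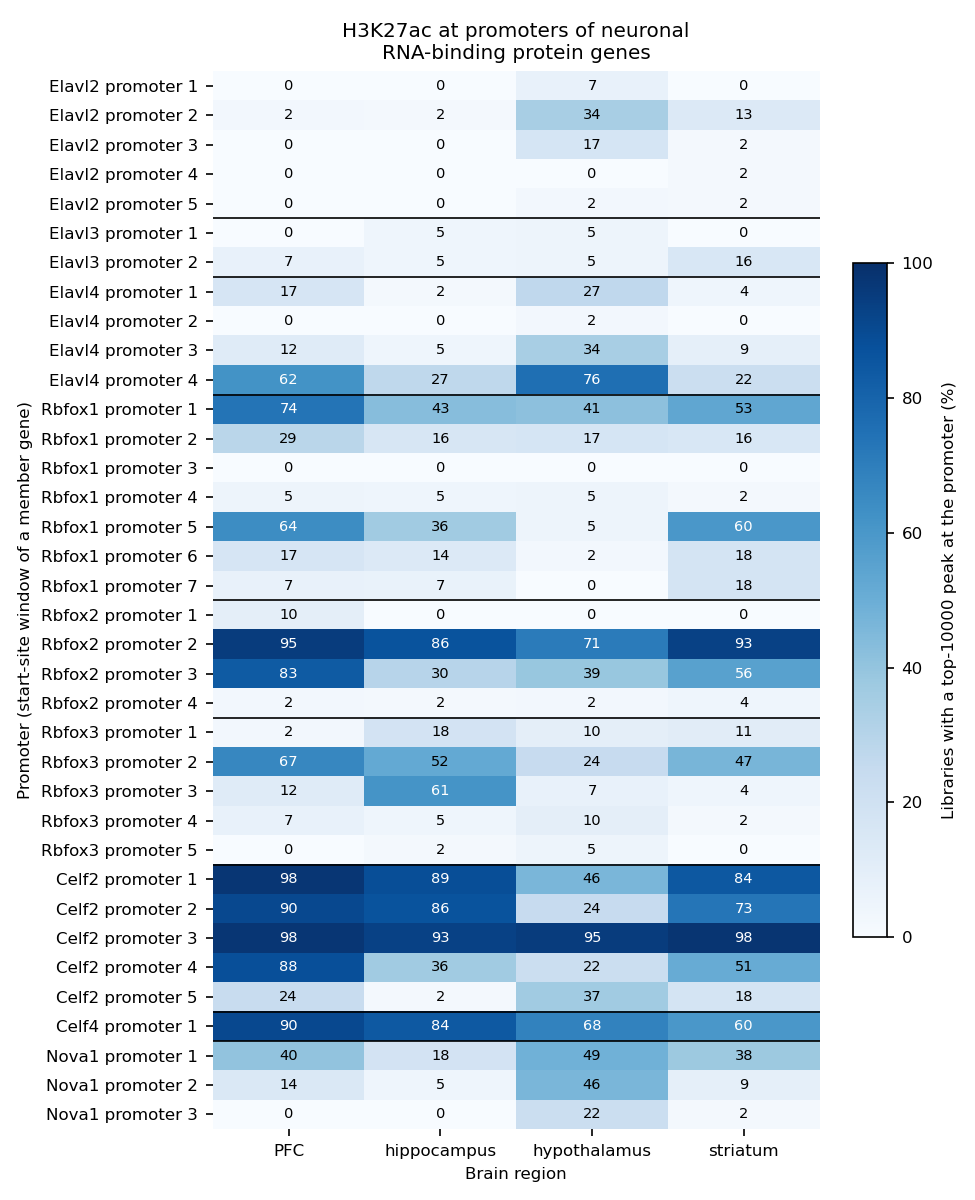
Share of libraries (percent, number and shade) with a peak among the 10000 strongest of the library within 1 kb of each of the 36 promoters (rows, numbered from the 5' end of each gene) in PFC (42 libraries), hippocampus (44), hypothalamus (41) and striatum (45). Elavl2 promoter 2 stands at 34.1% in the hypothalamus against 2.27% in the hippocampus, and Celf2 promoter 2 at 24.4% against 86.4%.

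The same contrast was seen over whole gene bodies, measured as the length covered by the 10000 strongest peaks of a library. Celf2 had the largest difference. Its covered length ran from 4.37 to 150.1 kb (median 35.1 kb) in the hippocampus, from 1.80 to 107.6 kb (median 33.5 kb) in the striatum, from 0 to 162.9 kb (median 49.7 kb) in PFC and from 0.447 to 27.9 kb (median 5.88 kb) in the hypothalamus. Per length, 6.13% of the Celf2 body was covered on average in PFC, 4.72% in the hippocampus, 4.09% in the striatum and 0.822% in the hypothalamus. On the scale of log2(bp + 1000) the hypothalamus was below the hippocampus by 2.31 ± 0.246, below PFC by 2.77 ± 0.249 and below the striatum by 2.16 ± 0.246 (SE, limma adjusted p = 4.39e-09, 3.84e-07 and 1.43e-05 in animals without LPS). Elavl2 was covered in 33 of 41 hypothalamus libraries with a median of 1.36 kb, and in 10 of 45 striatum, 5 of 44 hippocampus and 5 of 42 PFC libraries with medians of 0 kb. The hypothalamus exceeded the hippocampus at Elavl2 by 1.03 ± 0.0994, PFC by 0.98 ± 0.101 and the striatum by 0.86 ± 0.0993 (adjusted p = 4.94e-10, 6.52e-08 and 0.000106 in animals without LPS). The limit stated for the promoters of Elavl2 and Nova1 holds for their gene bodies too: both could be noticed through their hypothalamus regions. Leaving out the LPS animals does not remove it.

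Of the 9 genes, 7 were called between hypothalamus and hippocampus (background 19.3% of 15459 genes), 7 between hypothalamus and striatum (14.1%) and 7 between hypothalamus and PFC (30.7%), and these were the same genes in each. Elavl2, Elavl4 and Nova1 had more covered length in the hypothalamus, and Celf2, Rbfox1, Rbfox2 and Rbfox3 had less, over all libraries. Elavl4 averaged 3.07 ± 2.4 kb in the hypothalamus (SD, n = 41), 1.56 ± 1.90 in PFC, 0.730 ± 1.29 in the striatum and 0.350 ± 0.713 in the hippocampus. Nova1 averaged 1.43 ± 1.54 kb, 0.181 ± 0.469, 0.316 ± 0.766 and 0.114 ± 0.282 in the same order. Rbfox3 averaged 24.6 ± 17.6 kb in the hippocampus, 12.1 ± 7.29 in the striatum, 12.1 ± 6.93 in PFC and 7.98 ± 5.36 in the hypothalamus. Celf4, at 13.9 to 21.7 kb, and Elavl3, at 0.112 to 0.708 kb, were not called in any contrast of the hypothalamus. In the libraries of animals without LPS alone, Rbfox1 was not called in these 3 contrasts and Rbfox3 only against the hippocampus, and the other 5 genes were called in all 3 (background 13.6% against the hippocampus, 4.05% against the striatum and 15.3% against PFC). Between hippocampus and striatum only Rbfox3 was called (background 19.5%), with more coverage in the hippocampus, and between PFC and striatum 1 gene was called (background 17.1%). Within each gene the spread between libraries was wide, and sorted nuclei of 1 brain region hold several neuron types, so fewer nuclei with a mark and less of the mark per nucleus cannot be told apart.

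**Figure D2:**
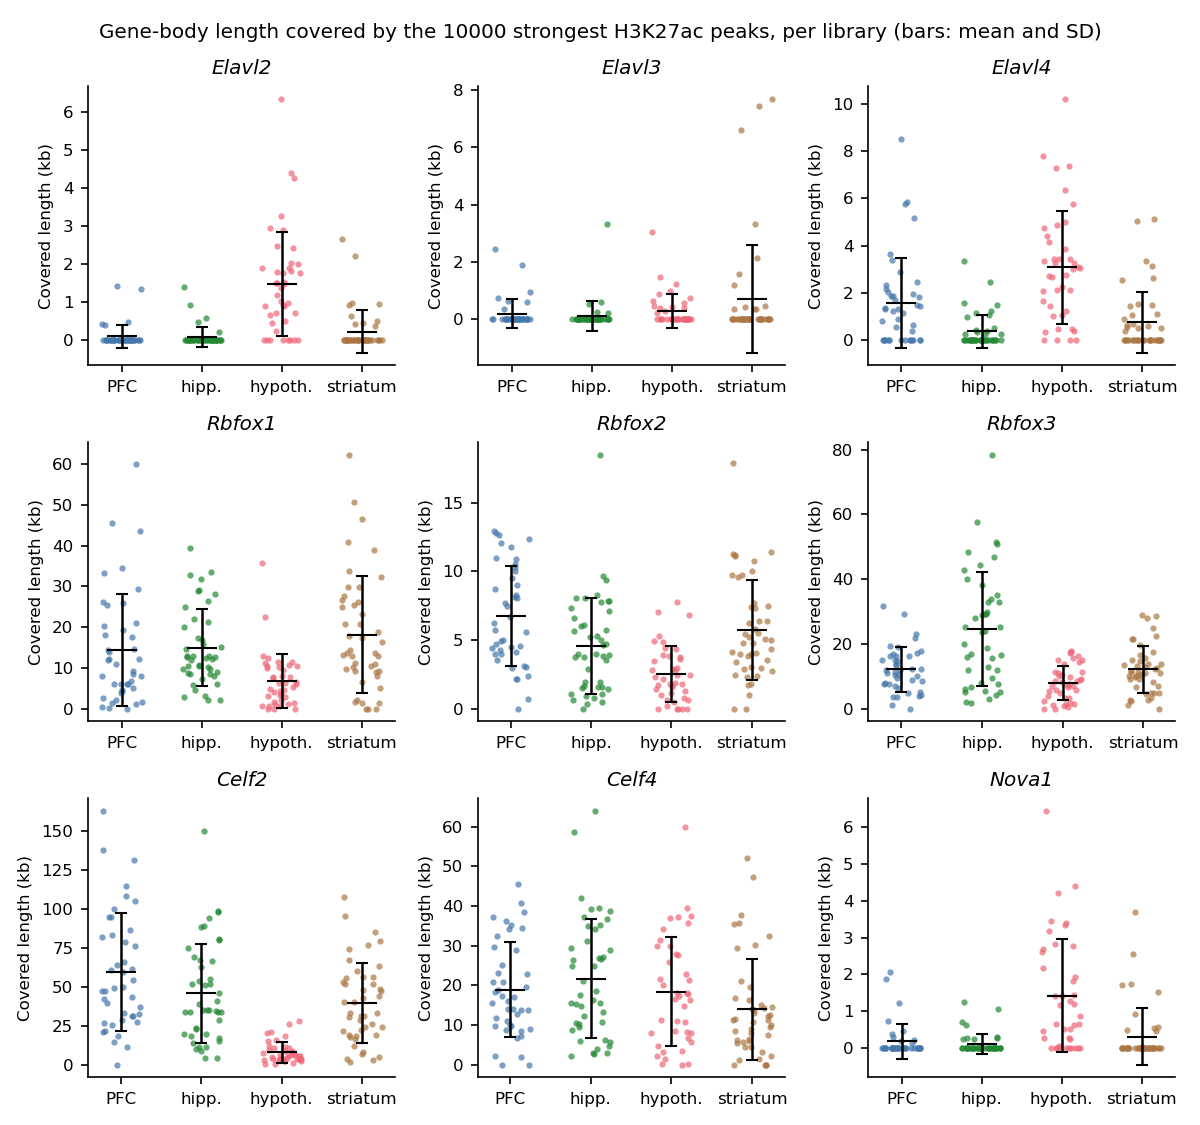
Gene-body length (kb) covered by the 10000 strongest peaks of each library for the 9 genes, with 1 point per library in PFC (n = 42), hippocampus (n = 44), hypothalamus (n = 41) and striatum (n = 45), and bars for mean and SD. The hypothalamus mean is highest at Elavl2, Elavl4 and Nova1 and lowest at Celf2, where its libraries reach at most 27.9 kb.

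The second comparison asked how treatments changed these regions. Each consensus region was ranked from 0 to 100 by peak height within its library, and groups were compared by limma with group and sex as terms. In the hypothalamus the leading member was the Elavl2 promoter region, chr4:91372052-91378207, a 6.2 kb interval that overlaps the promoter 2 and promoter 3 windows printed above. Its rank ran from 33.8 to 96.7 (median 69.3) in SAL-SAL, from 32.4 to 90.6 (median 66.3) in MOR-SAL, from 39.7 to 96.9 (median 81.4) in SAL-LPS and from 4.69 to 71.3 (median 19.4) in MOR-LPS. The other 3 groups overlapped broadly, most MOR-LPS libraries were low, and MOR-LPS overlapped SAL-LPS through 2 libraries, those of animals 13-2 (47.3) and 7-1 (71.3). The group means were 65.7 ± 22.004, 68.0 ± 15.9, 73.8 ± 19.98 and 26.6 ± 20.6 (SD, n = 8, 12, 11 and 10). MOR-LPS was 47.3 ± 10.9 points below SAL-LPS and 41.6 ± 10.9 below MOR-SAL (SE), and the interaction was −49.8 ± 16.2. These values are given as a description, because the gene was chosen with them known.

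The Elavl2 promoter region had a peak in 7 of 8 SAL-SAL, 11 of 12 MOR-SAL, 11 of 11 SAL-LPS and 6 of 10 MOR-LPS libraries. With 0 for a library without a peak, the median −log10 p was 8.82, 10.3, 10.0 and 5.09 and the median fold enrichment 5.73, 6.16, 6.17 and 3.54 in that order. Lists were longer in MOR-LPS, with a median of 70449 peaks against 48152 in SAL-LPS, and a rank depends on list length as well as on peak height. A −log10 p of 8.76 ranked at 38.4 among 97243 peaks (MOR-LPS 15-1), and 8.75 ranked at 80.9 among 40382 (SAL-LPS 3-1). Without a peak, the rank was 4.69 with 119814 peaks (MOR-LPS 16-4) and 33.8 with 20170 (SAL-SAL 10-3). The MOR-LPS library of animal 16-4 held 119814 peaks and none in this region, and the one of animal 14-4, with 135368 peaks the longest list of the hypothalamus, had 1 peak of −log10 p 6.32 there. Both sexes were low in MOR-LPS, at 27.1 ± 24.7 in 6 females and 25.8 ± 16.0 in 4 males, against 76.4 ± 13.1 in 6 SAL-LPS females and 70.7 ± 27.6 in 5 SAL-LPS males. In lists of equal length, that is each list cut to its 20170 strongest peaks, the difference from SAL-LPS was −41.1, and in the 28 libraries whose peak names carry lane 7, also chosen after seeing the data, it was −43.6. Neuron marker promoters carried a top-list peak at a mean share of 34.1% in SAL-LPS and 29.2% in MOR-LPS, astrocyte markers at 5.68% and 7.5% and oligodendrocyte markers at 3.64% and 9%, and microglia and endothelial markers were at 0 in both. With the neuron, astrocyte and oligodendrocyte shares as terms the difference was −46.9.

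**Figure D3:**
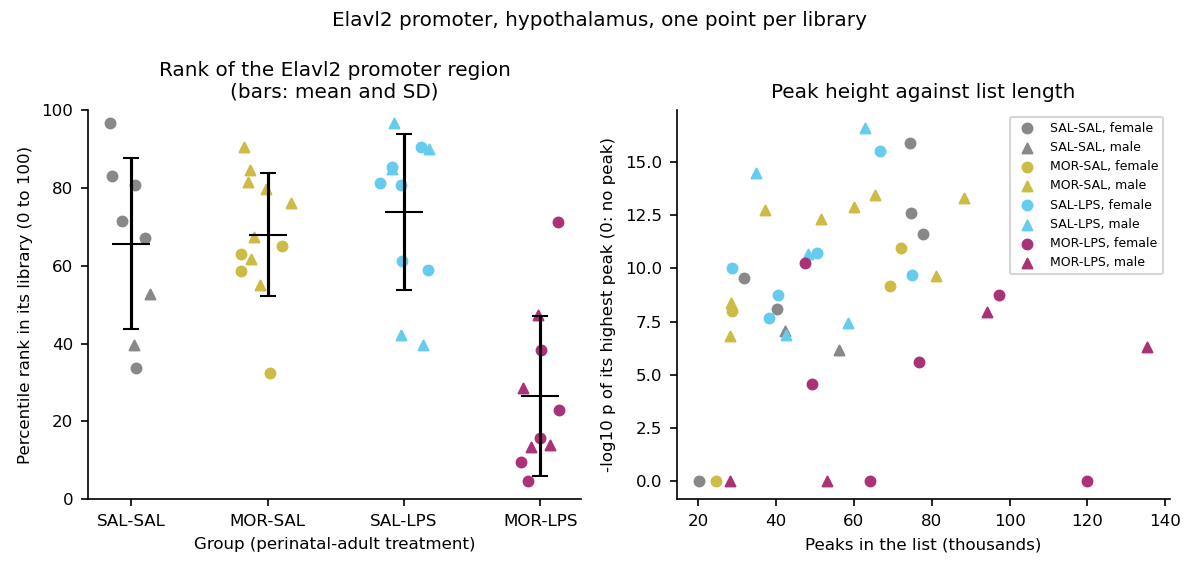
Left, percentile rank (0 to 100) of the Elavl2 promoter region in each hypothalamus library by group (circles female, triangles male, bars mean and SD). Right, −log10 p of its highest peak (0 without a peak) against the number of peaks in the list in units of 1000. The 10 MOR-LPS libraries average 26.6, and the SAL-LPS libraries average 73.8 from shorter lists.

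The other 5 Elavl2 regions of the hypothalamus also ranked lower on average in MOR-LPS than in SAL-LPS, so that 6 of 6 lay below 0, between −14.0 and −47.3. Against MOR-SAL all 6 lay below 0 as well, between −13.4 and −41.6. An intron region at chr4:91358792-91362122 averaged 64.1 ± 34.1 in SAL-SAL, 60.6 ± 34.7 in MOR-SAL, 44.7 ± 30.8 in SAL-LPS and 19.5 ± 17.4 in MOR-LPS. Along the locus, the highest share of libraries with a peak lay 4600 bp upstream of the start of promoter 2, inside the neighbouring intron region chr4:91379877-91382485, where 72.7% of SAL-LPS and 70.0% of MOR-LPS libraries had one. A peak at that place was thus about as frequent in MOR-LPS as in SAL-LPS. Over all groups 73.2% of hypothalamus libraries had a peak there. The striatum reached its highest share, 31.1%, at the same distance, and PFC its highest, 59.5%, 200 bp downstream of the start. The hippocampus had its highest share, 15.9%, at points from 4600 to 400 bp upstream.

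**Figure D4:**
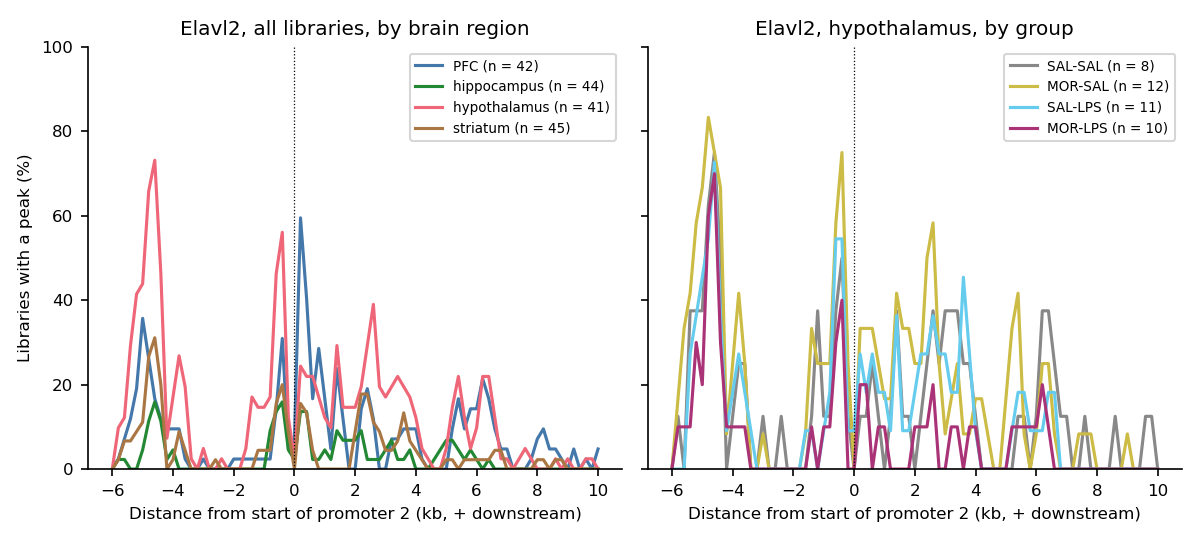
Share of libraries (percent) with any peak at each distance (kb) from the start of Elavl2 promoter 2, positive downstream. Left, by brain region. Right, hypothalamus by group: the highest share, 4600 bp upstream, is 70.0% in MOR-LPS and 72.7% in SAL-LPS.

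Elavl2 promoter 2 was followed in the other brain regions by its rank among promoters. In PFC the median was 74.3 in SAL-SAL, 68.9 in MOR-SAL, 73.2 in SAL-LPS and 69.2 in MOR-LPS, with peaks in 6 of 8, 7 of 9, 9 of 11 and 8 of 14 libraries. The striatum medians were 41.8, 86.9, 40.6 and 40.7, with peaks in 3 of 10, 4 of 7, 2 of 13 and 5 of 15. The hippocampus medians were 69.7, 39.7, 40.8 and 40.4, with peaks in 7 of 11, 2 of 11, 1 of 12 and 2 of 10. Hippocampus lists had a median of 94654 peaks in SAL-SAL and 62325, 53566 and 57627 in the other groups. Where most libraries of a group had no peak, its median is a tied rank of promoters without one. On the same scale the hypothalamus medians were 88.1, 90.5, 88.3 and 52.0. MOR-LPS had the lowest median in the hypothalamus only, and the lowest mean also in PFC (58.8). These ranks were not tested between treatments.

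Among the other members in the hypothalamus, a Celf4 intron region (chr18:25710345-25719469) ran from 65.5 to 97.3 (median 79.99) in SAL-LPS and from 13.9 to 87.0 (median 42.4) in MOR-LPS, a difference of −35.9 ± 10.2. With Elavl2 it made up the 2 of 99 member regions past an adjusted p of 0.05 in MOR-LPS against SAL-LPS, where 4.31% of all hypothalamus regions passed. Nothing is read from that count, since the genes were proposed with it known. An Elavl4 intron region (chr4:110226804-110232290) ran from 46.9 to 99.5 (median 71.7) in MOR-SAL and from 8.68 to 73.3 (median 30.0) in MOR-LPS, −42.7 ± 11.1. A Celf2 intron region (chr2:7088416-7091680) went the other way, from a median of 18.0 in MOR-SAL to 51.7 in MOR-LPS, +28.4 ± 8.93. These regions and 2 of Elavl2 were the 4 of 99 past the threshold between MOR-LPS and MOR-SAL, where 3.84% of all regions passed. The Celf2 region was also the 1 of 99 past it for the interaction, at +49.9 ± 13.3, where 1.86% of all regions passed.

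By family, the Hu genes differed among themselves in the hypothalamus. The median difference of MOR-LPS from SAL-LPS was −24.3 points at Elavl2 (0 of 6 regions higher), −19.1 at Elavl4 (0 of 5) and +4.84 at Elavl3 (2 of 2). It was −16.4 at Celf4 (1 of 28 higher), +2.42 at Celf2 (8 of 15), −14.1 at Nova1 (1 of 4), −9.10 at Rbfox3 (2 of 18), −7.01 at Rbfox2 (2 of 8) and −4.67 at Rbfox1 (6 of 13). Of the 99 regions 77.8% ranked lower, against 50.7% of all 13788. The median over the 99 regions was −10.4, against −0.34 over all. With lists of equal length it was −6.43 against −0.08, and Elavl2, Elavl4 and Celf4 kept 0 of 6, 0 of 5 and 1 of 28 regions higher.

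Perinatal morphine without LPS could be tested in the hypothalamus. Of the 99 regions 0 were called by limma between MOR-SAL and SAL-SAL (background 0% of 13788, called 0), and 5 had an unadjusted p under 0.05, as did 1109 of the 13788. The region of smallest p was a Celf2 intron region (chr2:7256203-7261042), which ran from 6.79 to 77.7 (median 51.1) in SAL-SAL and from 5.73 to 72.4 (median 16.5) in MOR-SAL, −30.4 ± 10.1 points (adjusted p = 0.330). The Elavl2 promoter region differed by +2.56 ± 11.9 (adjusted p = 0.977). The median SE of a difference over the 99 regions was 11.1 points, which gives an unadjusted 95% half-width of 21.7. That width is not a limit of detection after adjustment, since the Celf2 difference of −30.4 lay beyond it and was not called. Larger differences at a single region are therefore not excluded.

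In the striatum, 6 of 432 member regions were called between MOR-LPS and SAL-LPS, 1 higher and 5 lower (background 2.32% of 60013). Over all 60013 regions 1176 were called higher and 219 lower. A region of Elavl3 (chr9:22022402-22025872), 502 bp from the start of promoter 2 and not containing it, ran from 18.0 to 80.4 (median 32.2) in 13 SAL-LPS libraries and from 13.3 to 99.6 (median 62.0) in 15 MOR-LPS libraries. It ranked higher in MOR-LPS by 29.4 ± 8.70 points (adjusted p = 0.0471), with a peak in 10 of 15 libraries against 3 of 13. An Rbfox3 intron region (chr11:118775670-118785106) ran from 53.0 to 95.6 (median 90.2) in SAL-LPS and from 23.7 to 96.8 (median 58.6) in MOR-LPS and ranked lower by 31.1 ± 7.61 (adjusted p = 0.0307). Rbfox1 ranked lower at 2 intron regions, at chr16:7079972-7084444 by 33.2 ± 8.22 (adjusted p = 0.0312) and at chr16:7239516-7243029 by 35.5 ± 9.17 (adjusted p = 0.0334). Celf2 ranked lower in an intron at chr2:7215731-7240036 by 17.8 ± 5.06 and over an exon and intron at chr2:6958582-6962470 by 29.8 ± 8.99 (adjusted p = 0.0395 and 0.0494). The groups overlapped at all 6 regions, and 11 to 14 of the 15 MOR-LPS libraries lay beyond the SAL-LPS mean on the side of the difference.

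The second Rbfox1 region, chr16:7239516-7243029, was also the 1 of 432 called between MOR-LPS and MOR-SAL (background 0.253%). It ran from 60.9 to 96.5 (median 83.8) in MOR-SAL and from 17.0 to 82.9 (median 31.8) in MOR-LPS and ranked lower by 44.9 ± 10.8 (adjusted p = 0.0332). It was not called in lists of equal length, with peaks of −log10 q of at least 5 alone, or with log10 peak number or the oligodendrocyte marker share as a term. It had the smallest p of the interaction of perinatal morphine and LPS as well, −60.8 ± 14.7, which was not called (adjusted p = 0.0782, background 0.0167%). No member region was called by limma between MOR-SAL and SAL-SAL (22 at an unadjusted p under 0.05, as were 3340 of the 60013, background 0.00667%) or between SAL-LPS and SAL-SAL (20 at an unadjusted p under 0.05, as were 3062 of the 60013, background 0%).

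The striatum calls went with other differences between the libraries. In lists of equal length, of 10811 peaks, 0 of the 432 regions were called in MOR-LPS against SAL-LPS (background 0.118%). Oligodendrocyte marker promoters carried a top-list peak at a mean share of 31.3 ± 38.5% in MOR-LPS, with a range of 0 to 100% and all 10 markers seen, and of 7.69 ± 10.9% (0 to 40%, 4 of 10 markers) in SAL-LPS. The share was 5.71 ± 5.35% in MOR-SAL and 11 ± 31.4% in SAL-SAL. With that share as a term, an alternative chosen after seeing the data, 0 of 432 regions were called. Over the 432 regions 366 (84.7%) ranked lower in MOR-LPS, as did 55.1% of all 60013 regions. The median was −7.59 points against −1.47 over all regions. In lists of equal length 75.5% ranked lower against 63.8% of all, with medians of −0.79 and −0.04. The 7 Elavl3 regions went against this, with 7 of 7 higher and a median of +9.00 points, and 6 of 7 higher in lists of equal length.

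**Figure D5:**
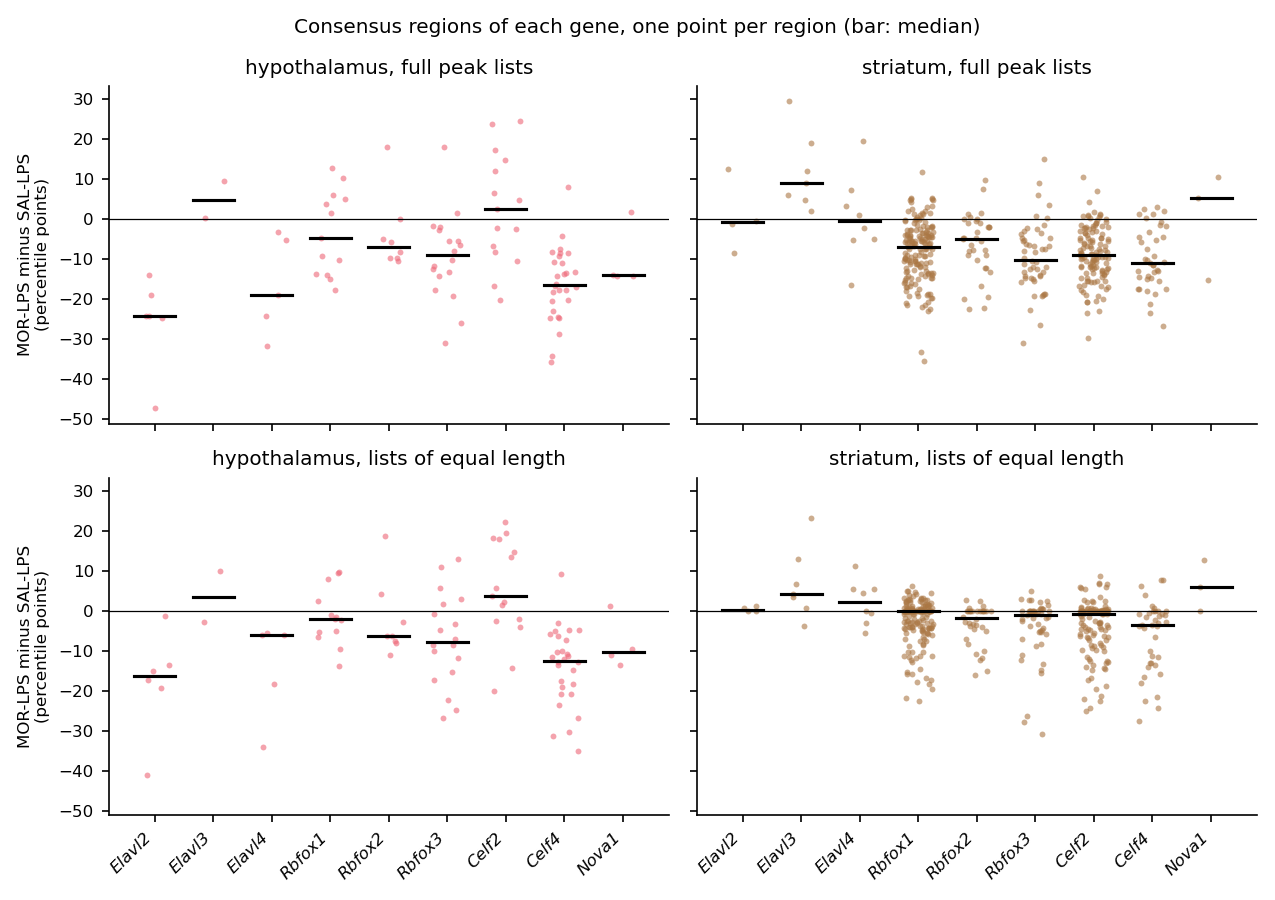
Difference in percentile rank (points, MOR-LPS minus SAL-LPS) of every consensus region of the 9 genes in hypothalamus (99 regions) and striatum (432), from full lists (top) and lists of equal length (bottom), with a bar at the median of each gene. Elavl2 lies below 0 in the hypothalamus, with a median of −24.3, and Elavl3 above 0 in the striatum, with a median of +9.00 from full lists.

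In PFC and hippocampus no member region was called by limma in any of the 5 contrasts. Unadjusted p-values under 0.05 were found for 3 to 13 of 169 regions in PFC and for 2 to 13 of 157 in the hippocampus, and over all regions for 540 to 2071 of 18272 and 914 to 1553 of 16201. The background was 0% in every PFC contrast, in lists of equal length it was 0.00547% for SAL-LPS against SAL-SAL in PFC, where 0 member regions were called, and in the hippocampus it was 0.00617% for MOR-SAL against SAL-SAL and for the interaction and 0% for the others. In PFC the smallest adjusted p belonged to an Rbfox1 intron region (chr16:6761462-6763968), which was lower in MOR-LPS than in SAL-LPS by 32.9 ± 9.79 points (adjusted p = 0.129). In the hippocampus it belonged to another Rbfox1 region (chr16:6527302-6534387) in SAL-LPS against SAL-SAL, at +33.8 ± 10.4 points (adjusted p = 0.231). Median SEs were 8.24 to 9.84 points for the pairwise contrasts in PFC and 9.37 to 9.78 in the hippocampus. Their unadjusted 95% half-widths were 16.1 to 19.3 points. Differences beyond these widths could also go uncalled after adjustment, as at both Rbfox1 regions above, and are not excluded.

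Other RNA-binding protein genes were taken from a list of 33, among them muscleblind (Mbnl), polypyrimidine tract-binding (Ptbp) and further Celf genes. In PFC and hippocampus 0 of their 81 and 59 regions were called in any contrast. In the striatum, 4 of 284 regions were called higher in MOR-LPS than in SAL-LPS and 1 lower. Over all 60013 regions 1176 were called higher and 219 lower, and nothing is read from the count. Among those higher were regions of Qk, a regulator of RNA processing best known in oligodendrocytes, Ptbp2 and Tia1, by 21.4 to 28.6 points. The lower one was of Rbms3, by 29.0. With equal-length lists these regions lost their calls, and the Ptbp2 difference went from +21.4 to −0.04. In the hypothalamus, 2 of 77 regions of 24 genes were past the threshold between MOR-LPS and SAL-LPS, both of Mbnl2 and both higher in MOR-LPS, by 30.5 and 36.7 points, where 4.31% of all regions passed. Against MOR-SAL 7 were past it, where 3.84% of all regions passed: MOR-LPS was higher at 2 of Mbnl2 and 1 each of Qk, Khdrbs1 and Cpeb2, by 30.1 to 35.9 points, and lower at 1 each of Msi2 and Srrm4, by 38.4 and 38.3. These hypothalamus values are a description as well.

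Genes whose promoter region followed the Elavl2 promoter region most closely over the 41 hypothalamus libraries were Dok5, Dscam, Ptpn5, Slc6a7 and Cacna1g, with Pearson's r of 0.66, 0.66, 0.63, 0.62 and 0.62. They were the 5 highest of 4582 promoter regions compared, whose median r was −0.029. The libraries share list length, group and animal effects, and no p is given. Among the 9 genes' regions, an Elavl2 intron region reached r = 0.56, and an Rbfox3 and a Celf2 intron region the lowest values, −0.61 and −0.52.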

How the data were processed

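H3K27ac was profiled by MOWChIP-seq, a low-input chromatin immunoprecipitation on a microfluidic device. The authors trimmed reads (Trim Galore 0.6.7), aligned them to mm10 (Bowtie2 2.4.5), removed PCR duplicates (SAMtools 1.15.1) and reads in blacklisted regions (BEDTools) and ran MACS2 2.2.7.1 on every library alone, keeping peaks under a q-value of 0.05. The deposited lists give fold enrichment (a ratio), −log10 p and −log10 q, and an integer score. DiffBind 3.10.1 was among their tools, and the deposited consensus regions carry no values. Read depth is not given in the lists, so depth was judged by list length only, and no counting interval could be given.

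Of 174 lists 172 were compared. A hippocampus SAL-LPS pair of males (1-2 and 5-2) held identical peaks and was counted as 1 sample, and a PFC SAL-SAL female with 4371 peaks was left out, under a minimum of 10000. The PFC MOR-LPS female 12-2 list names its peaks 12-0, and its label was used. Groups came from the labels. A region's height was the highest −log10 p of overlapping peaks, 0 without one, converted to a percentile rank from 0 to 100 within the library with ties averaged. Ranks were compared by limma 3.58.1 (R 4.3.3) with trend, group and sex as terms, and p-values were adjusted by Benjamini-Hochberg over all regions of a brain region and contrast, called under 0.05. "Rose" or "fell" was reserved for regions also called in lists of equal length. Promoters (within 1000 bp of a start) and gene bodies (log2 of bp covered by the 10000 strongest peaks, plus 1000) were compared between brain regions with the animal as a block. Replicate labels give litter and animal, and the same label in several brain regions is the same animal. Litter is nested in perinatal treatment and was a block in an alternative only. In the main fits between treatments litter mates were counted as independent, and the p-values rest on the spread between animals. Named regions were those at a member's promoter, those called or of smallest p in a contrast, and the Elavl2 regions. The 5 genes most like the Elavl2 promoter region were taken by Pearson's r, over 1 Mb away or on another chromosome, and other RNA-binding protein genes were named where a region was called, with 1 item not reported here. The genes and lists were chosen with earlier results of these data known. The fits were tested on simulated data. Tables and figures were made with Python 3.11.15, pandas 2.3.3, numpy 2.4.6, scipy 1.17.1 and matplotlib 3.10.9.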

Additional observations from a re-analysis of the deposited data

Results flagged for a closer look

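In 6 of 41 pairs of a named region and a group of 4 to 10 libraries, 1 library lay far from the others by Dixon's 95% criterion. The criterion's rate of about 1 in 20 need not hold here. The pairs share libraries, and the values are bounded ranks with ties. At the Celf2 region chr2:7372615 in the hippocampus, the MOR-LPS female 18-1 ranked at 64.1, and the next library at 33.5. At the Elavl2 intron region chr4:91358792 in the hypothalamus, the MOR-LPS male 13-2 ranked at 61.2, and the next at 33.3. The same striatum library, SAL-SAL female 9-4, was lowest at the Rbfox3 region chr11:118775670 (45.1, next 71.6) and at the Celf2 region chr2:7215731 (70.0, next 85.9). In that library 100% of oligodendrocyte, 16.7% of neuron and 0% of striatum markers had a top-list peak. A link between these was not tested. In striatum MOR-SAL, female 15-0 was lowest at the Rbfox1 region chr16:7079972 (29.4, next 73.9), and male 8-0 was highest at the Elavl3 region chr9:22022402 (56.7, next 36.4).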

How the results depend on the processing

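Of the counts of regions, promoters and genes, 201 stayed within 1.5 times their main value under an alternative and 40 did not. A main count of 0 that stayed 0 was among those that stayed, and every PFC and hippocampus count between treatments had a main value of 0. The 201 is therefore no measure of how stable the counts above 0 were. No called region of the 9 genes changed sign. The median difference over the members did in lists of equal length, from −1.09 to +0.80 in PFC MOR-LPS against SAL-LPS and from −7.00 to +0.02 in striatum MOR-LPS against MOR-SAL. Single regions were counted as unchanged in 224 cases, 25 were no longer called, 2 became called and 1 value moved. In hypothalamus contrasts with an LPS group, unchanged meant the same direction and a shift smaller than the region's SD within groups. The threshold was not checked there, and calls were lost, as the counts below show. In the other contrasts it meant the same direction and the same side of the threshold.

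Hypothalamus MOR-LPS against SAL-LPS, main count 2, gave 1 in lists of equal length, 0 with peaks of −log10 q of at least 5, 1 with marker shares as terms and 0 in lane 7. MOR-LPS against MOR-SAL, main count 4, gave 2, 0, 1 and 0 in that order and 2 for regions with a peak in 80% of a group. The interaction, main count 1, gave 0, 0, 0 and 0, 2 by fold enrichment and 3 with log10 peak number as a term. Striatum MOR-LPS against SAL-LPS, main count 6, gave 0 in lists of equal length, 0 at −log10 q of at least 5, 0 with the oligodendrocyte share and 11 with log10 peak number. MOR-LPS against MOR-SAL, main count 1, gave 0 under all 4, 3 with libraries of at least 20000 peaks and 7 with the 80% filter, under which the interaction gave 1 (main 0). PFC MOR-LPS against SAL-LPS gave 1 at −log10 q of at least 5 (main 0). The settings of lane 7, the oligodendrocyte share, rank 0 and animals without LPS were chosen after seeing the data. Shares over all regions are not set beside these counts, so nothing about the members is read from them. The cause was not tested.

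Promoter counts without LPS animals were 5 for PFC against hippocampus (main 15), 8 against hypothalamus (22), 2 against striatum (5) and 8 for hypothalamus against striatum (14). Of all 32252 promoters 2298, 2997, 13326 and 711 were called there, in the same order. With promoters without a peak at rank 0, PFC against hypothalamus gave 14 (6768 of all 15667 called). With top-list peaks alone it gave 13 (4436 of 7956), and PFC against hippocampus 7 (4455 of 7956). PFC against striatum gave 9 in lists of 10000 (21123 of all 32252 promoters called) and 10 with a 500 bp window (20530 of 32252). Hippocampus against striatum gave 1 in lists of 10000 (main 4), where 1043 of 32252 were called. Gene bodies without LPS animals gave 1 for PFC against hippocampus (main 3) and 0 for PFC against striatum (main 1), and full lists gave 2 for hippocampus against striatum (main 1). Of all 15459 genes 2474, 439 and 5412 were called there, in the same order.

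Leaving out 1 library at a time gave 1 to 8 in hypothalamus MOR-LPS against SAL-LPS (8 without MOR-LPS female 18-1), 2 to 9 against MOR-SAL and 0 to 5 for the interaction (9 and 5 without MOR-LPS male 13-2). It gave 0 to 13 in striatum MOR-LPS against SAL-LPS, with 0 without any 1 of 8 libraries and 13 without MOR-LPS female 12-2, and 0 to 3 against MOR-SAL. The Elavl2 promoter difference stayed between −52.2 and −44.8.

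With litter as a replicate block (correlations from −0.0159 to 0.0336), hypothalamus MOR-LPS against SAL-LPS gave 3 regions and striatum 6, and the other counts equalled the main ones. Without the animal block the promoter and gene-body counts between brain regions were as in the main fits.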
